A study of Mus musculus with 14 samples.

Results

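The interval described here is 3.5 Mb of mouse chromosome 15 around and downstream of the Myc gene, from position 61500001 to 65000000 of mm10 (GRCm38). Its members are all H3K27ac sites of the deposited list whose start lies in the interval. They number 667 of 122228 sites in all. The interval was chosen by where the sites of this list lie, so its number and density of sites are given as a description and no test was run on them. The working name of the interval refers to the gene desert downstream of Myc. The positions showed that most of the sites did not lie in that desert but inside the genes Pvt1 and Asap1 on either side of it.

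The sites came from chromatin immunoprecipitation followed by sequencing (ChIP-seq) in immortalised mouse embryo fibroblasts (iMEF). The cells carried floxed Ash2l alleles, a Cre-ER recombinase and a lentiviral construct for human ASH2L with an N-terminal FKBP12F36V tag. After deletion of exon 4 of endogenous Ash2l, a clone named NG3 was used for most experiments, so the data describe 1 clone. The compound dTAG-13 ties the tagged protein to a ubiquitin ligase and leads to its degradation. Per the labels, 2 H3K27ac libraries each were made from cells without dTAG (labelled WT) and from cells 30 min, 2 h, 4 h, 8 h and 16 h after dTAG was added. In addition, 1 input library each was made from the cells without dTAG and from the 16 h cells. All groups shared the tagged ASH2L and the deleted endogenous gene. The 12 H3K27ac libraries were joined by the authors into a single list of positions without a read count, height or sample label. Hence the sites have no value per sample and no replicate error, and a site may stem from any time point. The paper gives a planned minimum of reads per ChIP sample, but the list does not give the depth reached. From this list, no time point could be compared with the control. The paper made such a comparison, which was not used here.

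Acetylation of lysine 27 of histone H3 (H3K27ac) marks the nucleosomes of active promoters and enhancers. Enhancers are stretches of DNA that bind transcription factors and raise transcription of a gene from a distance. Myc encodes a transcription factor that drives growth and proliferation. It lies with few coding neighbours, and in several cell types it is known to be controlled by enhancers far downstream. Pvt1 is a long non-coding RNA gene just downstream of Myc, and its body is known to hold enhancers. Beyond Pvt1 follows a stretch without coding genes, then the Gsdmc genes, which encode pore-forming gasdermins, Fam49b, which encodes a regulator of Rac1 and the actin cytoskeleton, and Asap1. Asap1 encodes a GTPase-activating protein for Arf proteins, which acts on membrane traffic, cell adhesion and the cytoskeleton. Adcy8, at the far end, encodes an adenylyl cyclase best known from neurons.

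Marker genes of fibroblasts and of other cell types were looked up by their promoters. A transcription start site (TSS) was counted as having a site if the middle of one fell at most 1 kb from it. This held for 11 of 15 fibroblast marker genes, the exceptions being Col1a1, Dcn, Lum and Prrx1. With Col1a1 and Prrx1, 13 had a site that overlapped this window, whereas Dcn and Lum had none. A site with its middle within 1 kb was found for 0 of 5 epithelial, 0 of 4 haematopoietic and 0 of 3 pluripotency markers. For 3 endothelial markers the number was 2 (Cdh5 and Tek) and for 3 neuronal markers 1 (Tubb3). The share of all genes with such a site was not determined, so these counts do not establish the identity of the cells.

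To show the DNA behind these sites, short stretches are printed from the GRCm38.p6 reference, 5′ to 3′ on the plus strand. The 3 desert sites are the widest ones whose central 200 bases hold the letters TGANTCA, searched as those of AP-1 (Jun and Fos) proteins. Any base was allowed in the middle. Forms with C or G there were not separated from forms with A or T, which AP-1 may bind differently. Capitals mark these letters.
Desert, chr15:62569899-62569965: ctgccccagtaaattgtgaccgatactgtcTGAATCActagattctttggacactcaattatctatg
Desert, chr15:62920672-62920738: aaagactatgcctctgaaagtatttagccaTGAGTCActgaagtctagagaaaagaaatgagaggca
Desert, chr15:62483678-62483744: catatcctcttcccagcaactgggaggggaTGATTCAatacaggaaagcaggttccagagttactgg
The sites they belong to measured 2598, 774 and 478 bp. For Pvt1 and Asap1 the 2 widest sites of each that met the same condition are shown, a choice made after their values were seen.
Pvt1, chr15:62139440-62139506: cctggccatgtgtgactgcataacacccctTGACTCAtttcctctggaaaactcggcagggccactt
Pvt1, chr15:62083401-62083467: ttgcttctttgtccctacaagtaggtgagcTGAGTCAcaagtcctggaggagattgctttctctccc
Asap1, chr15:64357561-64357627: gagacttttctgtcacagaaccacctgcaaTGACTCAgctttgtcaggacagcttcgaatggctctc
Asap1, chr15:64365057-64365123: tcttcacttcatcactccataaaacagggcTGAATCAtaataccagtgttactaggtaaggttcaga
The base in the middle of the AP-1 letters varied among these 7 stretches. The site over the Myc promoter held no AP-1 letters. The 100 bases at its middle, in an intron of Myc, are printed with each CpG in capitals, and they are set beside the middle of the widest site of the interval, which covers the 5′ end of Asap1.
Myc, chr15:61986324-61986423: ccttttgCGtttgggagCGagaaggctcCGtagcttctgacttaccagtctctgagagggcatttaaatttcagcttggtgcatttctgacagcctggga
Asap1, chr15:64380673-64380772: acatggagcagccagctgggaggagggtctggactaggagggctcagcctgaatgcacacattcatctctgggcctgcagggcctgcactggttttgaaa
The Myc stretch has 3 CpG and the Asap1 stretch 0. The latter lies about 2.196 kb inside the gene, at the middle of a site that overlaps a CpG island elsewhere, so it does not show the Asap1 promoter itself.

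With 667 sites in 3.5 Mb, the interval held 191 sites per Mb, compared to 47.7 per Mb over chromosomes 1 to 19 and X and 67.1 per Mb over the rest of chromosome 15. Sites covered 11.8% of its bases, compared to 3.07% of all chromosomes. When the chromosomes were tiled into 741 windows of 3.5 Mb, the median window held 157 sites (quartiles 74 and 233) and the fullest 626. The tiling began at the start of each chromosome and was not aligned to the interval, whose bounds were chosen with the sites known. Hence the interval is not itself among these windows, and its higher number follows in part from that choice. Within the interval the sites were spread unevenly. The 1-Mb bin from 62 Mb, which holds Pvt1, had 299 sites and ranked 3 among 2355 bins with a site. The bin from 64 Mb, which holds Asap1, had 272 and ranked 5. The bins from 61 Mb and 63 Mb had 89 and 48 sites and ranked 414 and 1039.

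In steps of 50 kb, the 12 fullest of the 70 steps held 419 sites (62.8%), whereas 12 steps had none. The 5 fullest steps lay inside Pvt1 (44 sites from 62050001, 44 from 62150001 and 43 from 62200001) and inside Asap1 (42 from 64250001 and 41 from 64200001). A step with at least 40 sites was found 34 times among the 52685 steps of all chromosomes (0.0645%). Empty steps made up 17.1% of the interval and 53.8% of all chromosomes. The number of sites and the share of DNA that they cover did not rank the steps alike. The step from 62100001, inside Pvt1, had 26 sites, fewer than the step on either side, but these covered 84.4% of its bases, the highest share of any step of the interval. Its median site was 1372.5 bp wide, against 502.5 and 444.5 bp in the neighbouring steps. Likewise, the step from 64350001, which contains the 5′ end of Asap1, had 24 sites that covered 66.6% of its bases.

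**Figure D1:**
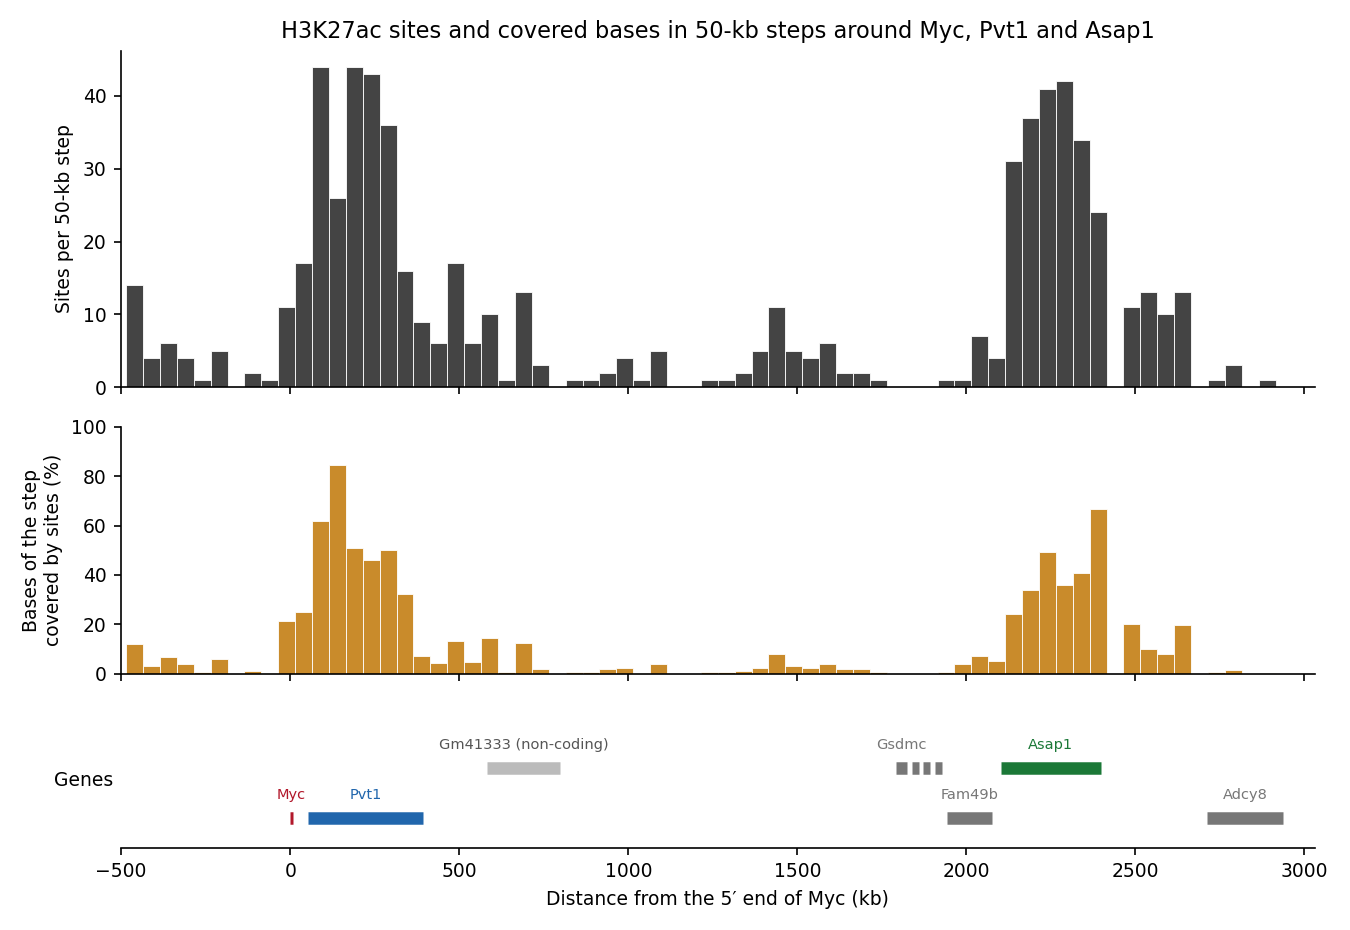
Number of H3K27ac sites (top) and share of bases covered by sites in percent (middle) for each of the 70 steps of 50 kb, by distance from the 5′ end of Myc in kb, with the bodies of selected genes drawn below. The bars form 1 block over Pvt1, up to 44 sites per step, and another over Asap1, up to 42, with low bars across the desert between them.

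Of the empty steps, 4 lay in the desert or at its end (from 62750001, 63100001, 63150001 and 63750001), 2 in the Gsdmc genes (from 63800001 and 63850001), 1 upstream of Myc (from 61800001) and 5 beyond Asap1 (from 64400001, 64650001, 64800001, 64900001 and 64950001). The longest stretch without a site measured 221742 bp, from 63727193 to 63948934, and spanned all Gsdmc genes. The next in length were 166059 bp (63072462 to 63238520) and 111850 bp (62737576 to 62849425), both in the desert. At the edges of the interval, the first member (421 bp, from 61506580) lay 33.9 kb from the last site before it (212 bp), and the last member (200 bp, from 64881793) lay 257 kb from the first site after the interval (240 bp).

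The interval was divided at annotated gene ends into 8 parts. Upstream of Myc were 39 sites (80.3 per Mb), which covered 3.87% of the bases. The Myc gene of 4.98 kb was taken up by 2 sites. Between Myc and Pvt1 were 14 sites (294 per Mb, 14.6% of bases). Pvt1 held 220 sites (647 per Mb, 50.8% of bases). The desert from the end of Pvt1 to Gsdmc, 1398 kb long, held 118 sites (84.4 per Mb, 3.35% of bases). From Gsdmc to Asap1 were 12 sites (38.6 per Mb, 2.50% of bases). Asap1 held 203 sites (686 per Mb, 40.3% of bases). Beyond Asap1 were 59 sites (95.6 per Mb, 5.86% of bases). Thus Pvt1 and Asap1 together accounted for most members. The desert had a site density 1.77 times that of all chromosomes, with a share of covered bases of 3.35% compared to 3.07%. The rest of chromosome 15 had 67.1 sites per Mb and 4.20% of bases covered. Against it, the density of the desert was higher and its covered share lower.

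Myc was covered almost whole. A site of 4527 bp (61984111 to 61988637) ran from upstream of the annotated 5′ end at 61985391 into the gene, and its middle lay within 1 kb of 5 of the 6 annotated Myc TSSs. A second site of 1399 bp (61988716 to 61990114) began 78 bp further on and overlapped coding exon sequence. Both sites together covered 93.2% of the gene. They belonged to a run of 8 sites with gaps under 1 kb, from 61982615 to 61994315, in which 73.6% of the 11701 bp were covered. Its first 2 sites, 206 and 269 bp wide, lay at the TSS of Gm37947, an uncharacterised transcript. Downstream of this run, 4 sites of 201 to 900 bp lay around 13.7 kb from the Myc 5′ end, and 5 of 321 to 464 bp preceded a 200-bp site close to Pvt1. A stretch of 25492 bp between these groups was without a site.

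For the Myc network as a gene list, Max, the partner of Myc, and its antagonists and relatives were looked up by their promoters. A TSS site was found for 11 of the 12 genes, the exception being Mycn. The share of all genes with a TSS site was not determined, so this count shows nothing particular to the network. The widest such site of Myc, 4527 bp, was the widest of the list, ahead of 3734 bp at Mxi1 and 2699 bp at Mnt, both of which encode Max-binding repressors.

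Pvt1 was the part with the most sites. Its 5′ end at 62037986 lay in a site of 3154 bp (62037539 to 62040692), and 8 sites lay within 1 kb of one of its 10 annotated TSSs. The other 7 were 582, 349, 260, 264, 720, 603 and 1736 bp wide and lay at internal TSSs between 62098667 and 62223984. By their middle, 214 of the 220 sites lay in an intron and 6 in an exon of a non-coding gene. Among 2853 genes of at least 100 kb, Pvt1 ranked 6 by number of sites and 5 by sites per length, with 64.7 per 100 kb against a median of 3.74. The gene was divided into 10 segments of 34.0 kb from its 5′ end. The first 9 held 12 to 32 sites, whereas the last held 1. Coverage was highest in the third segment, in which 15 sites with a median width of 1654 bp covered 90.7% of the bases. The first segment was covered to 68.2%, the eighth to 39.0% and the last to 0.588%.

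Asap1 resembled Pvt1 in density but differed in its widths. The 5′ end at 64382919, on the minus strand, lay in a site of 10596 bp (64375426 to 64386021), the widest member. Only 33 sites of the whole list were wider. Its middle was 2.196 kb from the 5′ end, so that it was not counted as a TSS site. The 7 sites within 1 kb of one of the 13 Asap1 TSSs were internal and measured 219 to 4902 bp. That of 4902 bp (64311168 to 64316069) overlapped coding exons, a CpG island and the TSS of the antisense transcript 1700010G06Rik. In all, 200 of the 203 Asap1 sites had their middle in an intron. Asap1 ranked 10 among the long genes by number of sites and 4 by sites per length, with 68.6 per 100 kb. Of 10 segments of 29.6 kb, the first was covered to 85.6% by 16 sites with a median width of 1229.5 bp. In the others, sites covered 16.0% to 59.5% of the bases, with the highest value in the sixth and the lowest in the last.

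**Figure D2:**
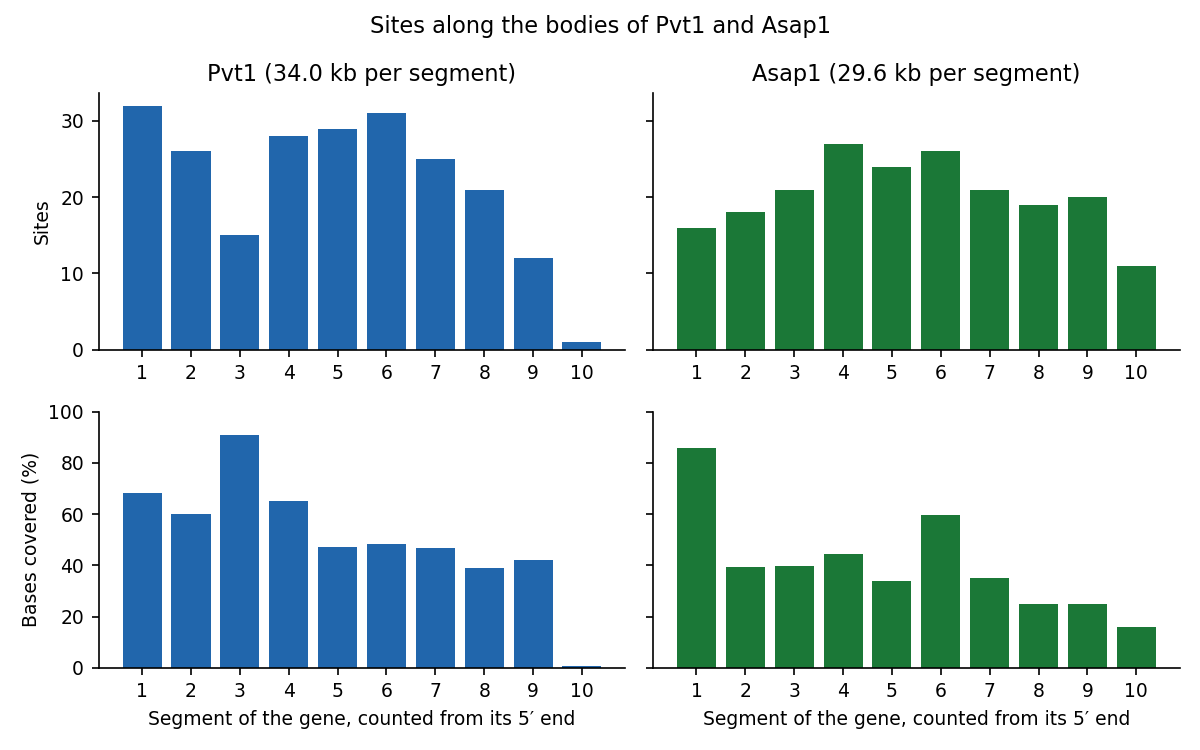
Number of sites (top) and bases covered in percent (bottom) for 10 equal segments of Pvt1 (left, blue) and of Asap1 (right, green), counted from the 5′ end. Coverage peaks at 90.7% in the third segment of Pvt1 and at 85.6% in the first of Asap1, and the last of Pvt1 has 1 site.

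The desert sites were fewer, narrower and further apart. The empty stretches of over 100 kb divided them into 3 blocks. The first block, from 396 to 752 kb downstream of the Myc 5′ end, held 64 sites (54.2% of the desert sites, 180 per Mb). The second, from 864 to 1087 kb, held 14 (62.8 per Mb), and the third, from 1253 to 1742 kb, held 40 (81.9 per Mb). The median width was 346 bp in the first block, 299.5 bp in the second and 269 bp in the third. By step, the desert reached 17 sites (from 62450001), 13 (from 62650001), 11 (from 63400001) and 10 (from 62550001). The widest desert site, 2598 bp, lay at 62568650 to 62571247 in Gm41333, a long intergenic non-coding RNA gene. It followed 91 bp after a site of 1274 bp that covered the 5′ end of Gm41333 and was the only desert site within 1 kb of any TSS. Gm41333 as a whole held 22 sites, 10.2 per 100 kb. Gm41335, a non-coding gene of 541 kb in the third block, held 39 sites (7.20 per 100 kb), but none near its 3 TSSs.

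Coding genes other than Myc, Asap1 and Fam49b had no site within 1 kb of a TSS. Fam49b had 2 such sites, 1841 and 1704 bp wide. Both overlapped CpG islands, and the second covered its 5′ end. Gsdmc, Gsdmc2, Gsdmc3 and Gsdmc4 had no site in their bodies either. Adcy8 had 5 sites in its body of 225 kb, and the predicted genes Gm21798 and Gm21961 had 1 and 0. The nearest coding genes outside the interval were A1bg, which encodes a plasma glycoprotein, without a TSS site, and Efr3a, which encodes a membrane anchor of a phosphatidylinositol kinase, with 2. Without a share over all genes for comparison, 12 of the 45 annotated genes overlapping the interval had a TSS site. The non-coding ones were Pvt1, Gm37947, Gm41333, 1700010G06Rik, the small RNA genes Gm27782, Gm27718 and Gm27957 within Pvt1, the H2afy3 pseudogene, also within Pvt1, and Gm10926 within Asap1.

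Beyond Asap1, a run of 9 sites from 64469639 to 64481530 lay 93 kb upstream of the Asap1 5′ end and included a site of 2485 bp. Another run of 9 sites, from 64617389 to 64628394 and 240 kb from that end, included sites of 2490 and 2419 bp. Of the 59 sites beyond Asap1, 4 were wider than 2 kb, compared to 1 of 118 in the desert.

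Across all 667 members the median width was 395 bp (quartiles 263.5 and 651.5), close to the 401 bp of all sites. The 95% interval of the median, from order statistics, was 373 to 420 bp and included the latter value. The parts differed. The median was 503 bp in Pvt1, 375 bp in Asap1, 301.5 bp in the desert, 375 bp upstream of Myc, 369.5 bp between Myc and Pvt1, 343 bp from Gsdmc to Asap1 and 327 bp beyond Asap1. Sites of exactly 200 bp, the smallest width in the list, made up 7 of 220 Pvt1 sites (3.18%), 4 of 203 Asap1 sites (1.97%) and 13 of 118 desert sites, compared to 5.77% of all sites. Wider than 2 kb were 25 members (3.75%, compared to 4.33% of all sites), of which 14 lay in Pvt1, 5 in Asap1, 4 beyond Asap1, 1 in Myc and 1 in the desert.

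Of the 10 widest members, 6 lay in Pvt1, 3 in Asap1 and 1 in Myc. After the sites named above, they were 5378 bp (62116183 to 62121560), 4600 bp (62133632 to 62138231) and 4050 bp (62124787 to 62128836) in the third segment of Pvt1, and 4510 bp (62325962 to 62330471) and 2956 bp (62320449 to 62323404) in its ninth segment. A site of 3189 bp (64356023 to 64359211) lay in Asap1, 25.3 kb from its 5′ end. Only 4 of the 10 overlapped a CpG island, namely those at Myc, at the 5′ ends of Pvt1 and Asap1 and at the internal Asap1 TSSs. The widest of the remaining parts were 1378 bp upstream of Myc (61532117 to 61533494), 900 bp between Myc and Pvt1 (61998391 to 61999290), 1841 bp at Fam49b (63996996 to 63998836) and 2490 bp beyond Asap1 (64620739 to 64623228).

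**Figure D3:**
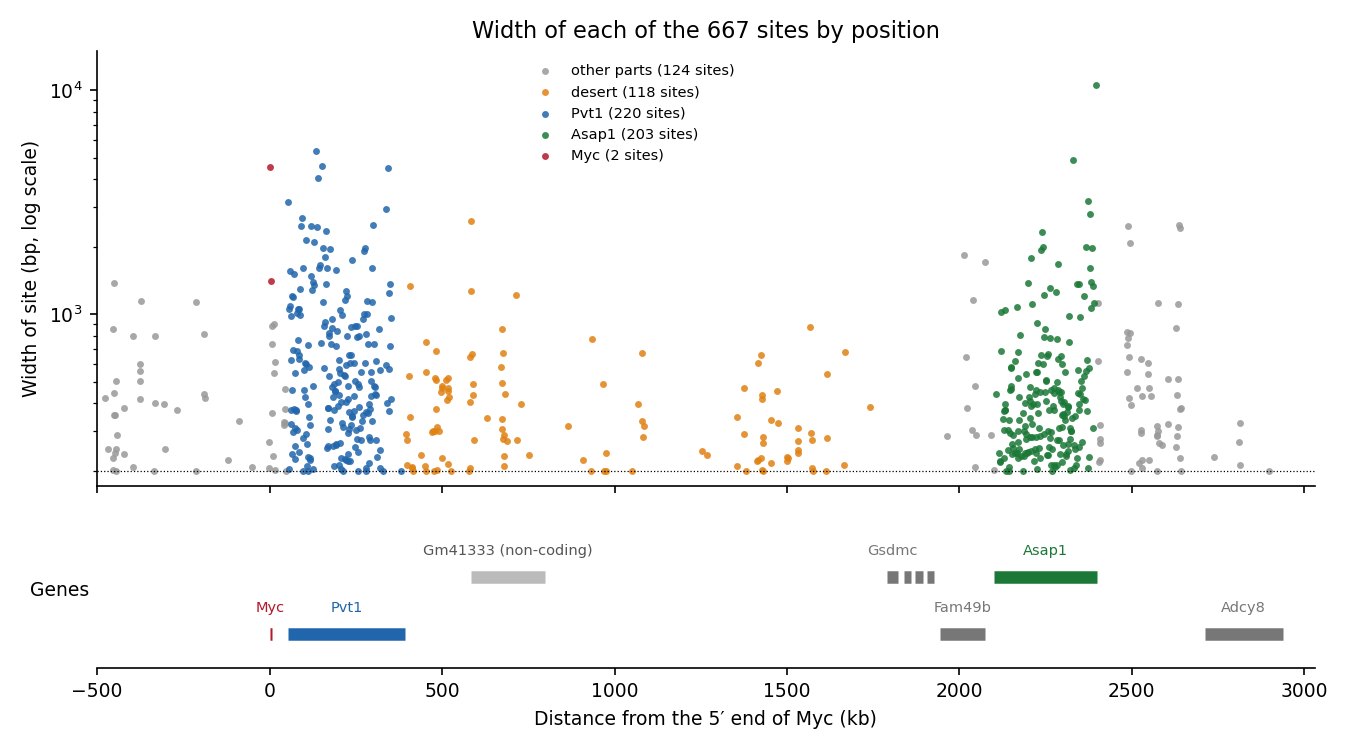
Width of each member in bp on a log scale, by the distance of its middle from the 5′ end of Myc in kb, coloured by part, with genes drawn below and a dotted line at 200 bp. Wide sites stand over Myc, Pvt1 and Asap1, up to 10596 bp, and 1 of the 118 desert sites exceeds 2 kb.

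The sites lay close together. Another site within less than 1 kb was found for 573 members (85.9%, 95% Wilson interval 83.1 to 88.3), compared to 72.2% of all sites. The share was 98.2% (95.4 to 99.3) in Pvt1, 90.1% (85.3 to 93.5) in Asap1 and 65.3% (56.3 to 73.2) in the desert. These intervals reflect counting error alone and treat sites as independent, which close neighbours are not. The median gap from one site to the next was 489.5 bp in the interval and 1044 bp over all chromosomes. It was 315 bp in Pvt1, 445 bp in Asap1 and 1339 bp in the desert. In the desert, the gaps fell on either side of the 1-kb limit, with quartiles of 452 and 9773 bp.

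**Figure D4:**
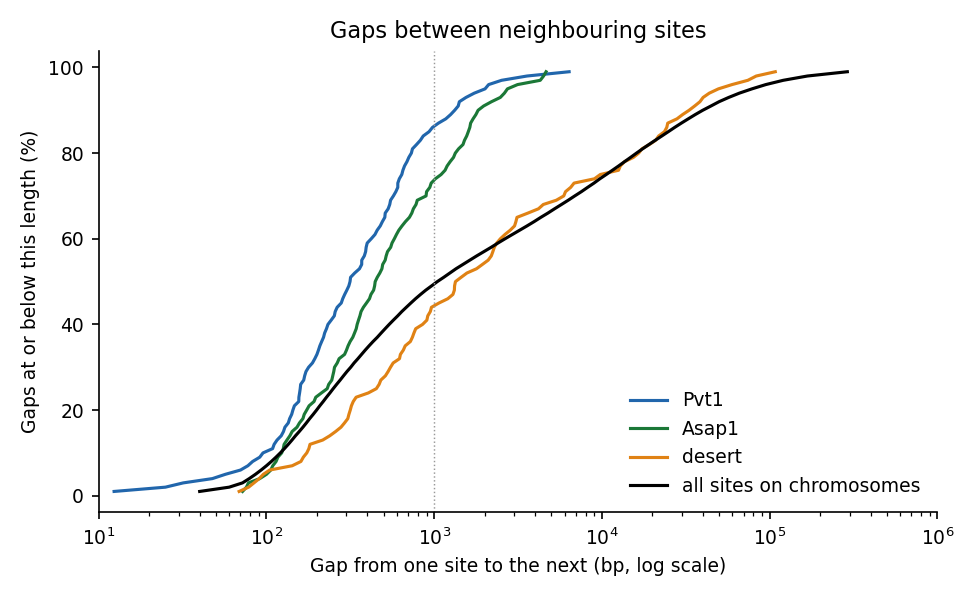
Cumulative share of gaps between neighbouring sites, in percent, by gap length in bp on a log scale, for Pvt1, Asap1, the desert and all chromosomes, with a dotted line at 1 kb. Pvt1 and Asap1 curves lie left of that of all chromosomes over most of its course, and the desert curve crosses it, with medians of 315, 445, 1339 and 1044 bp.

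When sites with gaps under 1 kb were joined, the 667 sites formed 206 clusters, of which 94 were single sites and 41 had 5 or more sites. These 41 clusters held 391 sites (58.6%), compared to 23.4% of all sites in such clusters. By the part that most of their sites lay in, 16 were in Pvt1, 15 in Asap1 and 4 in the desert. Of the sites of each part, 189 of 220 (85.9%) in Pvt1, 133 of 203 (65.5%) in Asap1 and 23 of 118 (19.5%) in the desert lay in a cluster of this size. The cluster with most sites had 38, from 62101542 to 62162673 in Pvt1, with its centre 147 kb from the Myc 5′ end. It spanned 61132 bp, of which 84.0% was covered, and contained 3 of the 10 widest members. The largest cluster of the whole list had 53 sites. The next clusters had 21 sites (62037539 to 62059962, which includes the Pvt1 5′ end), 20 (62063901 to 62087926, Pvt1), 16 (64217595 to 64236753, Asap1) and 15 (62253808 to 62270682, Pvt1). The 4 desert clusters had 7, 6, 5 and 5 sites, all in the first block.

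Joined across gaps under 10 kb, a distance chosen after the positions were seen, 225 sites formed 1 region of 313 kb, from 62025943 to 62338714. It began 12.043 kb before the 5′ end of Pvt1 and ended 39.4 kb before its 3′ end. With 175 kb covered by sites, it ranked 1 among 31375 such regions of all chromosomes, by number of sites and by covered bases alike. A second region of 212 sites and 319 kb, from 64075896 to 64394497, reached beyond both ends of Asap1 and ranked 3 on both measures. Myc itself was not part of the Pvt1 region, since the stretch of 25492 bp without a site lay between them, and its own region, from 61982615 to 62000450, had 12 sites and ranked 1512 by number. In the desert, the largest region had 23 sites, from 62456970 to 62511334, and ranked 529.

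Most members were far from TSSs. The middle of 28 sites (4.20%, 2.92 to 6.0) lay within 1 kb of any TSS, compared to 18.7% of all sites. For TSSs of protein-coding transcripts, the number was 9 (1.35%, 0.711 to 2.54), compared to 13.7%. The median distance to a coding TSS was 132 kb, against 23.5 kb over all sites, and 368 members (55.2%, 51.4 to 58.9) were more than 100 kb away, compared to 18.7% of all sites. The parts differed in this distance. In Pvt1, which is non-coding, 80.9% of sites were over 100 kb from a coding TSS, while no Asap1 site was. In the desert it was 117 of 118, with 51 over 500 kb, and the farthest site was 906 kb away. The desert was bounded so as to hold no coding gene, so its long distances follow largely from that choice. The share of the bases of the interval over 100 kb from a coding TSS was not determined. Hence these distances describe the layout of genes as well as the sites. Counting any TSS, 42 desert sites were 50 to 100 kb away and 20 more than 100 kb.

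By annotation, the middle lay in an intron of a non-coding gene for 302 members (45.3%), in an intron of a coding gene for 214 (32.1%) and between genes for 136 (20.4%). A further 12 lay in non-coding exons, 2 in coding exons and 1 in a UTR. CpG islands, called from the reference, overlapped 6 members (0.900%, 0.413 to 1.95), compared to 10.2% of all sites, namely 1 at Myc, 1 at Pvt1, 2 at Fam49b and 2 at Asap1. Among sites over 3 kb from a TSS, 0 of 585 members (0 to 0.652%) and 0.526% of the list overlapped one.

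In 3 other 1-Mb bins with many sites, at Spred1 and Rasgrp1 (362 sites), at Tead1, Parva and Mical2 (357) and at Lpp (293), TSS sites were likewise few, with 2.21%, 5.04% and 1.71%. A neighbour within less than 1 kb was found for 88.4%, 87.1% and 82.3% of their sites. The median widths were 406.5, 431 and 378 bp. In these 3 measures the interval lay within the range of those bins.

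The sites had a GC content of 47.8%, compared to 41.3% for the whole interval and 50.8% for all sites. Repeat-masked bases made up 15.2% of the member bases, 28.6% of the interval and 16.8% of all site bases. Desert sites were at 20.6%, in a part with 31.2%. The observed to expected ratio of CpG was 0.212 over members and 0.338 over all sites, and reached 0.651 in the Myc sites. Over the 70 steps, steps with more sites tended to have a higher GC content (Spearman's rho 0.38, Pearson's r 0.53) and fewer repeats (rho -0.43, r -0.51). The steps share 1 region and neighbouring steps are not independent, so this is a description. The 11 steps with at least 20 sites had 43.1% to 47.5% GC and 15.0% to 22.5% repeats. Those without a site had 38.2% to 45.1% GC and 21.4% to 49.8% repeats. Reads that fall in repeats can be lost in alignment, and the part of this in the empty steps was not tested.

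Letters assigned to 10 factor families were searched on both strands in the central 200 bases of each site. AP-1 letters, TGANTCA, which read the same on both strands, were found in 64 members (9.60%, 7.59 to 12.1), compared to 8.09% of all sites and 6.15% (5.77 to 6.55) of the 14829 tiles of 200 bases in the interval that held no site. The interval of the members thus included the share of all sites and lay above that of the tiles. AP-1 was not alone in the latter. The intervals of the members for ETS, E-box, RUNX and NFI letters, given further on, also lay above the share of the tiles. For RUNX and NFI this was only just so, and the intervals of members and tiles overlapped. The share was 8.18% (5.24 to 12.6) in Pvt1, 8.87% (5.68 to 13.6) in Asap1 and 12.7% (7.86 to 19.9) in the desert, and these intervals overlap. The 15 desert sites with AP-1 letters were spread over all 3 blocks, with 6, 3 and 6. How members compared with all sites varied with the search. In windows without a repeat-masked base the shares were 11.9% (8.71 to 16.0) of members and 8.40% of all sites. For sites over 3 kb from a TSS they were 9.40% (7.29 to 12.04) and 8.95%. When 500 bases were searched, the members were below all sites, with 19.6% (16.8 to 22.8) and 21.3%. For most other motifs the members were close to all sites. TEAD letters (GGAATG) were found in 12.7% compared to 12.4%, and RUNX letters (TGTGGT) in 15.7% (13.2 to 18.7) of members and 15.7% of all sites. The shares were 7.35% compared to 7.29% for GATA letters (AGATAA), and 12.3% (10.016 to 15.0) compared to 11.02% for NFI letters (TTGGCA). E-boxes (CACGTG), the letters bound by Myc and Max, were found in 20 members (3.0%, 1.95 to 4.59), compared to 3.24% of all sites, TCF letters (CTTTGAT) in 3.15% compared to 2.69%, and ETS letters (CCGGAAG) in 2.25% (1.37 to 3.68) compared to 1.65%. In the tiles, the share was 13.1% (12.6 to 13.7) for RUNX letters, 10.014% (9.54 to 10.5) for NFI letters, 1.51% for E-boxes and 0.472% for ETS letters. CRE (TGACGTCA) and CEBP (TTGCGCAA) letters were found in 0 members, and in 0.196% and 0.0270% of all sites. None of these letters contains another of the set. GATA letters were more frequent in tiles without a site (14.1%) than in members. The interval as a whole had a lower GC content than its sites. The bearing of base composition on any comparison with the tiles was not tested. A match describes letters only, and does not show that a factor was bound.

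**Figure D5:**
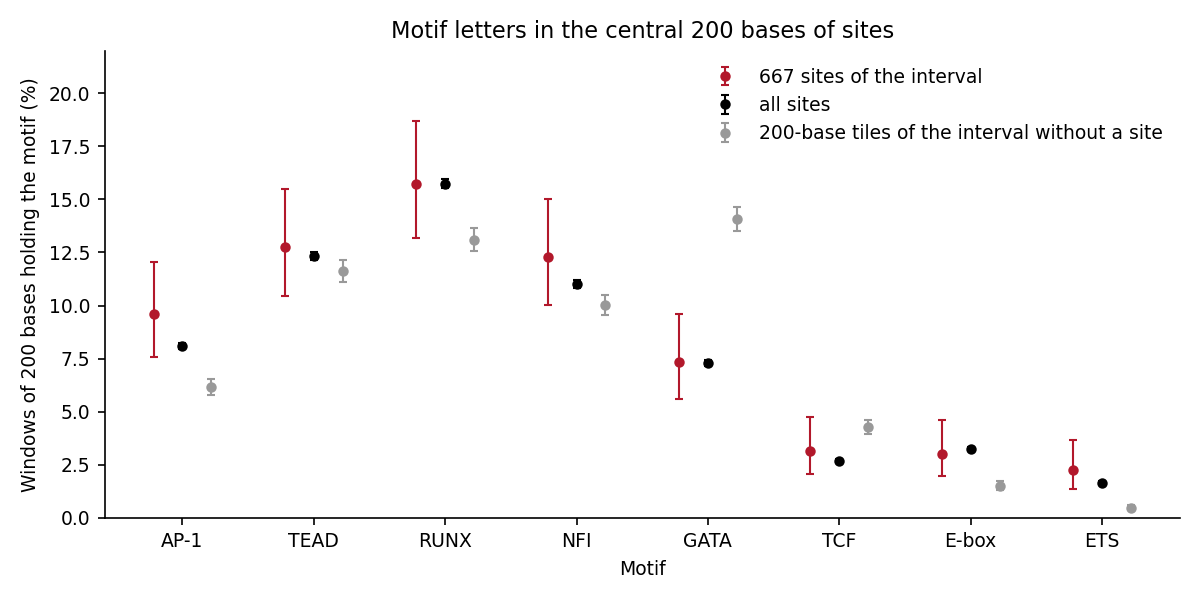
Share of 200-base windows with the letters of a motif, in percent, for the 667 members (red), all sites (black) and tiles of the interval without a site (grey), with 95% Wilson intervals as bars. For AP-1 the red point is at 9.60%, the black at 8.09% and the grey at 6.15%, and for all 8 motifs shown the red bar spans the black point.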

How the data were processed

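H3K27ac ChIP-seq was carried out in 12 libraries, with 2 inputs that were not used here. The authors used Trim Galore for trimming, BWA for alignment to mm10 (GRCm38.p6), SAMtools for filtering by ENCODE rules, Picard to merge replicates and MACS for narrow peaks. The MACS version and threshold are not given in the sources used here. The deposited list holds positions in bp, which is neither a count nor another signal. How peaks of different samples were joined was not given, and joining may widen sites. Start was read as counted from 0, and positions are printed counted from 1.

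Sites on chromosomes 1 to 19 and X (122171 of 122228) were set against GENCODE M21, an earlier release than that of the authors, and GRCm38.p6 (RefSeq). TSSs were those of all annotated transcripts, and distances were taken from the middle of a site. A site was assigned to a part, gene or gene segment by its middle and to a step by its start. CpG islands (16208) were runs scored 17 per CpG and -1 per other base, of at least 200 bp, 50% GC and an observed to expected ratio of 0.6. Intervals are 95% Wilson intervals. The interval and its lists were chosen with earlier results of these data known. Named were Myc, Pvt1, Asap1, other coding genes in or next to the interval, genes with a TSS site, all Myc and Pvt1 TSS sites, the 10 widest sites and the widest of each part, the 5 fullest and all empty steps, and the 5 largest clusters. Procedures were tested on simulated data. Python 3.11.15, numpy 2.4.6, pandas 2.3.3, scipy 1.17.1, numba 0.67.0 and matplotlib 3.10.9 were used.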

Additional observations from a re-analysis of the deposited data

How the results depend on the processing

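No paired analysis was possible because sites carry no value per library. For the same reason no library or time point could be left out, the read depth reached could not be considered, and no result has a replicate error. Of 27 alternatives for 9 results, 26 were planned and 1 was chosen after the data were seen. In 10 the value stayed within its 95% interval or within 1.5 times, and 17 were counted as moved. The 17 include changes fixed by definition, as a wider window cannot lower a share and covered bases are another unit. For repeats the interval treats bases as independent, so a small change counted as moved. The count thus does not measure how robust the results are. By covered bases, the interval had 118 kb per Mb, compared to 30.7 on all chromosomes. With sites merged below 1 kb it had 58.9 per Mb, compared to 24.1, and the ratio fell from 3.99 to 2.44. The desert without the narrowest 25% of all sites had 54.4 sites per Mb, compared to 35.7. The share near a TSS was 7.95% for 2 kb, 12.3% for 3 kb and 1.35% for coding transcripts, below the 25.2%, 30.5% and 13.7% of all sites. Merged regions had a median width of 1038 bp, compared to 891 bp. The share with a close neighbour was 70.8% for 500 bp, 95.2% for 5 kb and 82.5% without the narrowest 25%, above the 60.7%, 85.5% and 68.0% of all sites. Clusters of at least 5 sites fell from 41 to 18 with gaps under 5 kb and to 17 under 10 kb, whereas on all chromosomes they numbered 3900, 6092 and 6619. By definition a wider gap can fuse clusters but not split them, so the fall in the interval reflects clusters that were joined. Under 10 kb, its 2 largest regions held 225 and 212 sites. AP-1 letters were found in 22.3% when whole sites were searched and in 19.6% in 500 bases, compared to 21.1% and 21.3% of all sites, so that the direction against all sites turned for 500 bases. Repeats without TSS sites were 15.5%, compared to 18.8%. The fullest step had 25 sites for 25 kb and 83 for 100 kb, or 50 and 41.5 per 50 kb, compared to 44. Both were counted as moved without that scaling.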
